A study of Danio rerio with 6 samples.

Results

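The genes described here are the keratins, the claudins and 8 named epidermal genes of zebrafish, followed in osteoblasts sorted from regenerating scales. They comprise every gene whose symbol begins with krt or cldn, together with epcam, cdh1, tp63, dspa, ppl, evpla, jupa and pkp3a. The rule gave 71 of the 34289 genes in the deposited tables, namely 21 keratins, 39 claudins, the 8 named epidermal genes, 2 claudin domain genes (cldnd1a and cldnd1b) and krtcap2. The last of these is named for keratinocytes but is no keratin, since its human counterpart is a subunit of the oligosaccharyltransferase complex. The rule itself uses symbols and no measured value.

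All 6 libraries came from fish carrying the reporters osx:H2A-mCherry and osx:Venus-hGeminin, both driven by regulatory sequence of osterix (sp7), a transcription factor of osteoblasts. Scales were plucked, and the regenerating scales were collected 4 days later from 3 to 5 fish per sample and digested with Liberase, a collagenase blend. Live single cells positive for H2A-mCherry were sorted into a Geminin-negative gate (3 libraries) and a Geminin-positive gate (3 libraries). Venus-hGeminin accumulates in S, G2 and M phase. The labels name the gates after low and high Erk activity, while the design text says that the Geminin signal runs opposite to Erk activity, so the groups are named here by the gate and no Erk direction is drawn. The sources used here give neither age nor strain. The labels do not say that the libraries of a group came from separate pools of fish, so the p-values measure only the spread between these libraries, which may be technical.

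Keratins form the intermediate filaments of epithelial cells by pairing a type I with a type II chain. The products of krt8 (type II) and of the krt18 genes (type I) are the pair typical of simple epithelia, while krt4, krt5 and the krt1-19 genes are used as markers of fish epidermal layers. Claudins are membrane proteins that form the strands of tight junctions. Epcam and E-cadherin (cdh1) mark epithelial cells, tp63 encodes the transcription factor of basal keratinocytes, and desmoplakin (dspa), periplakin (ppl), envoplakin (evpla), plakoglobin (jupa) and plakophilin 3 (pkp3a) are parts of desmosomes or of the cell envelope. A scale lies in the dermis and is covered by epidermis, so scale digests can hold epidermal cells.

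Libraries held 15854710 to 34472612 counts assigned to genes. The gmnn level, read as a check of the gate, was 364 to 422 CPM (counts scaled to library size by TMM) in the Geminin-negative and 1510 to 1630 CPM in the Geminin-positive libraries (log2 fold change 1.97, edgeR adjusted p = 0.0106). On the first principal component, with 31.3% of the variance, Geminin-negative replicate 3 stood apart at -203.4 while the others lay between -56.6 and 108. Fold changes and medians that moved clearly without it are given both ways. The summed level of 10 leukocyte genes was 2061 to 2894 CPM in the Geminin-negative and 72.5 to 178 CPM in the Geminin-positive libraries, and 5 of the 9 tested were called lower. Of 12 osteoblast genes tested, col1a1a was the 1 called, higher in the Geminin-positive libraries. The summed level of 13 osteoblast genes was 87612 to 183714 CPM against 221418 to 412657 CPM, though 6 of the 12 had a negative log2 fold change. For sp7 the level was 72.2 to 136 CPM against 150 to 270 CPM (log2 fold change 0.84, edgeR adjusted p = 0.464).

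Of the 71 genes, 51 had at least 1 count in some library and 25 had counts in all 6. The 8 named epidermal genes were all detected, against 14 of 21 keratins and 26 of 39 claudins. A set of 7 keratins was at 0 in every library, namely krt1-19e, krt1-c5, krt222, krt92, krt93, krt95 and krt98. Of these, krt1-19e is also known as krtt1c19e and is widely used as a marker of basal keratinocytes. The 13 claudins at 0 included cldn5b, a claudin of endothelium, and cldn2, cldn10d, cldn18 and cldn29. A count of 0 allows up to 0.0821 to 0.216 CPM, depending on the library, by counting error alone.

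Few genes carried most of the signal. A mean of at least 10 CPM was reached by 19 genes (9 keratins, 6 claudins, 3 named epidermal genes and krtcap2), and 100 CPM by 6 keratins and krtcap2. Per kilobase of gene model, krt18a.1 averaged 2100 CPM and ranked 25 among 21637 genes with a count. On the same scale krt8 averaged 589 CPM per kilobase (rank 98), krt5 355 (rank 166), krt4 199 (rank 317) and krt18b 172 (rank 372). The highest claudin was cldnb at 40.9 CPM per kilobase (rank 1257), and epcam ranked 2144.

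As a share of plain library totals, keratins were higher in each Geminin-negative library than in any Geminin-positive library, but their TMM-scaled levels overlapped. Their share was 0.746%, 0.948% and 1.29% in the Geminin-negative and 0.637%, 0.474% and 0.594% in the Geminin-positive libraries, or 0.996% ± 0.277 against 0.568% ± 0.0848 (SD, n = 3 each; exact two-sided permutation p = 0.1, the smallest that 3 against 3 libraries allow). Without Geminin-negative replicate 3 the Geminin-negative mean was 0.847%. Outside the 10 most abundant genes, which are led by collagens, the share was 1.42% ± 0.31 against 1.05% ± 0.0825 (exact permutation p = 0.1). There Geminin-negative replicate 1, at 1.117%, lay barely above Geminin-positive replicate 1, at 1.116%. Summed TMM-scaled keratin levels were 5995, 8948 and 10371 CPM against 6644, 6507 and 6818 CPM, so that Geminin-negative replicate 1 lay below all Geminin-positive libraries (exact permutation p = 0.4). In bulk libraries, fewer cells of a type and less RNA per cell cannot be told apart.

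Claudin counts were far fewer. They made up 0.0189%, 0.0262% and 0.0350% of the Geminin-negative and 0.0135%, 0.0146% and 0.00817% of the Geminin-positive libraries, again without overlap (exact permutation p = 0.1, and 0.2 outside the 10 most abundant genes). Their summed TMM-scaled levels overlapped, at 152, 248 and 281 CPM against 141, 201 and 93.7 CPM (exact permutation p = 0.2). The Geminin-negative mean was 0.0267% ± 0.00808, and 0.0226% without replicate 3, against 0.0121% ± 0.00345. For the 8 named epidermal genes the groups overlapped, with shares of 0.0180%, 0.0251% and 0.0230% against 0.0225%, 0.00846% and 0.0147% (exact permutation p = 0.2).

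**Figure D1:**
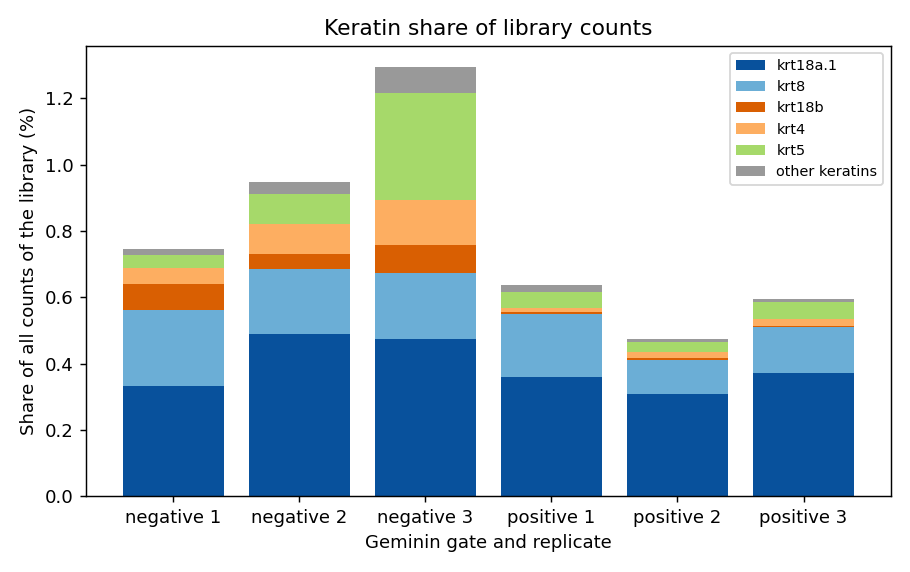
Keratin share of each library's counts, in percent, with each bar divided among krt18a.1, krt8, krt18b, krt4, krt5 and the other keratins. Bars run from 0.746% to 1.29% in the Geminin-negative and from 0.474% to 0.637% in the Geminin-positive libraries, and krt5 takes 25.0% of keratin counts in Geminin-negative replicate 3.

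The simple-epithelium pair was abundant, and its TMM-scaled levels were close across the gates. For krt18a.1 the level was 2671, 4609 and 3798 CPM in the Geminin-negative and 3764, 4225 and 4257 CPM in the Geminin-positive libraries. The groups overlapped, and the log2 fold change was 0.14 (SE 0.25, edgeR adjusted p = 0.9999). Its partner krt8 was at 1844, 1862 and 1606 CPM against 1953, 1414 and 1582 CPM, also with overlap (log2 fold change -0.11 ± 0.22 SE, adjusted p = 0.9999 by edgeR). Over the 6 libraries the highest level of krt8 was 1.38 times the lowest, and that of krt18a.1 1.73 times, where krt5 spanned 8.28-fold and krt4 7.96-fold. krt8 and krt18a.1 together held 75.3%, 72.3% and 52.1% of keratin counts in the Geminin-negative and 86.0%, 86.7% and 85.6% in the Geminin-positive libraries. Of plain library totals the pair held 0.562%, 0.686% and 0.674% against 0.548%, 0.410% and 0.509%, without overlap (exact permutation p = 0.1). Outside the 10 most abundant genes its shares overlapped (exact permutation p = 0.8). The row of krt18a.2, which lies 1.167 kb from krt18a.1, held 102 counts in Geminin-negative replicate 2, 60 in Geminin-positive replicate 1 and 0 elsewhere. Near-identical copies could share reads, and the sources used here do not give how the counting treated such reads.

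Relative to the 8 epidermal genes, neither member of the pair lay apart between the gates by the rule used. The summed level of those genes, called the epidermal index here, was 144, 236 and 184 CPM in the Geminin-negative and 235, 116 and 168 CPM in the Geminin-positive ones (exact permutation p = 0.7), and jupa alone made up 32.9% to 73.6% of it. A gene with a mean of at least 10 CPM was counted as apart when its mean log2 ratio to the index differed between gates by at least 1 and the ratios did not overlap. For krt8 the ratio was 12.8, 7.88 and 8.72 against 8.30, 12.2 and 9.40, a log2 difference of 0.04 (exact permutation p = 0.8). For krt18a.1 it was 18.5, 19.5 and 20.6 against 16.0, 36.3 and 25.3, a log2 difference of 0.33 (exact permutation p = 0.4). The levels of both exceeded those of all 8 index genes together in every library. The index overlapped between the gates, so the rule largely repeats each gene's own difference between them. It cannot show whether the pair varied with epidermal genes from library to library, which was not tested. The ratio of krt8 to krt5, chosen after the values were seen, was 5.89, 2.19 and 0.620 against 3.86, 3.45 and 2.69. That of krt18a.1 to krt5 was 8.53, 5.41 and 1.47 against 7.44, 10.3 and 7.23.

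Of 15 genes with such a ratio, 4 lay apart. Ratios of krt18b, krt4 and krt91 were lower in the Geminin-positive libraries, with log2 differences of -2.88, -1.69 and -1.11, and that of cldn33b was higher by 2.74. Each had an exact permutation p of 0.1, unadjusted over the 15. The krt91 ratios were 0.576, 0.790 and 1.99 against 0.537, 0.518 and 0.322, so its difference rested largely on Geminin-negative replicate 3. The outcome also depended on the index. Epcam, cdh1 and tp63 alone summed to 29.0, 51.4 and 56.4 CPM against 68.2, 14.8 and 23.1 CPM. Relative to that sum, krt4 and krt91 overlapped between the gates, while krt18b and cldn33b did not.

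A further type 18 keratin gene, krt18b, was the 1 gene of the 71 that passed the test. Its level was 636, 415 and 679.9 CPM in the Geminin-negative and 76.9, 104 and 41.5 CPM in the Geminin-positive libraries, so that the lowest Geminin-negative library lay far above the highest Geminin-positive one. Means were 577 ± 142 and 74.1 ± 31.3 CPM (SD, n = 3 each), a 7.79-fold lower level in the Geminin-positive libraries (log2 fold change -2.97 ± 0.39 SE, adjusted p = 0.0220 by edgeR). It no longer passed when Geminin-negative replicate 1 was left out (log2 fold change -2.87, edgeR adjusted p = 0.0551), nor when Geminin-negative replicate 3 was (-2.89, edgeR adjusted p = 0.0563). The ratio of krt18b to krt18a.1, chosen after the values were seen, was 0.238, 0.0901 and 0.179 against 0.0204, 0.0246 and 0.00974. The summed levels of some lists for other cell types were also lower in the Geminin-positive libraries. Besides the leukocyte genes, the pigment cell list summed to 170.3 to 187 CPM against 5.95 to 52.8 CPM, with tspan36 called (adjusted p = 0.0321 by edgeR), and the nerve and Schwann cell list to 437 to 515 CPM against 99.6 to 142 CPM, with pmp22a called (adjusted p = 0.0397 by edgeR). Most of the pigment sum came from tspan36 (mean 175 against 14.7 CPM), while gch2 of that list was higher (0.034 against 15.9 CPM). Most of the nerve sum came from pmp22a (213 against 72.9 CPM) and pmp22b (199 against 32.7 CPM), with sox10, mbpa, plp1b and erbb3b at 0. The dermal fibroblast list was higher, at 1533 to 1779 CPM against 2935 to 6902 CPM, most of it lum, though 3 of its 7 tested genes were lower. The part of these cell types in the krt18b result was not tested.

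**Figure D2:**
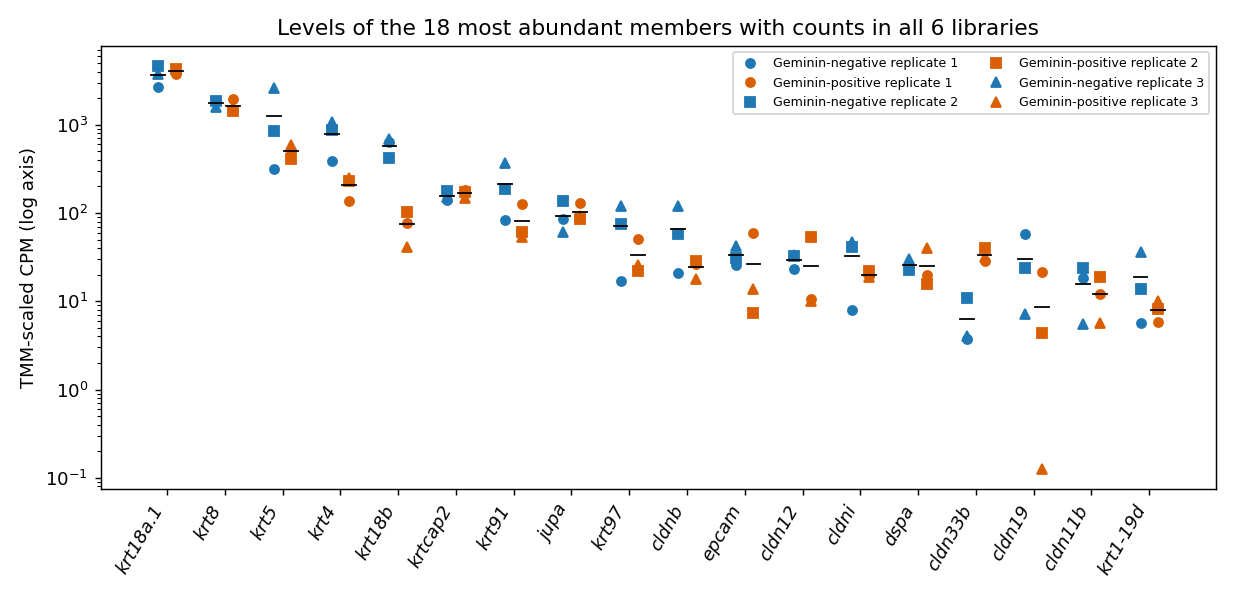
Level of the 18 most abundant genes with counts in all 6 libraries, in CPM on a log axis, with 1 point per library, symbols for the replicate and short lines for group means. Levels of krt18b lie between 415 and 679.9 CPM in the Geminin-negative and between 41.5 and 104 CPM in the Geminin-positive libraries, while those of krt8 overlap.

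Among the epidermal keratins, krt4 had no overlap between the gates but did not pass the test. It was at 384, 865 and 1084 CPM in the Geminin-negative and 136, 232 and 250.1 CPM in the Geminin-positive libraries (log2 fold change -1.92 ± 0.41 SE, adjusted p = 0.101 by edgeR). It was called in 6 of 12 alternative fits, with adjusted p from 7.36e-07 to 0.238. krt4 and krt18b are neighbours on chromosome 6 (danRer10), at 39310962 to 39315491 and 39362841 to 39367931, with 47.35 kb between them.

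The level of krt5, a type II keratin of the epidermis, was 313, 851 and 2592 CPM against 506, 409.7 and 589 CPM. Geminin-negative replicate 3 was the high library, and the groups overlapped (log2 fold change -1.32, edgeR adjusted p = 0.617). Without that library the log2 fold change of krt5 was -0.24. The type I keratin krt91 was at 83.1, 187 and 367 CPM against 126, 60.3 and 54.2 CPM (log2 fold change -1.40, edgeR adjusted p = 0.421), and its log2 fold change was -0.78 without the same library. Its exons share 625 bases with the row of cyt1, which held 15 counts in all, so reads of the pair may not have been assigned cleanly. krt97 was at 16.9, 75.5 and 122 CPM against 51.3, 22.1 and 26.0 CPM, with a log2 fold change of -1.11, and of -0.50 without Geminin-negative replicate 3. It overlaps krt96 on the same strand by 696 bases.

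The remaining keratins were scarce. krt94 was at 29.0, 37.1 and 64.0 CPM against 16.8, 17.6 and 0 CPM, without overlap (log2 fold change -1.92 ± 1.31 SE, adjusted p = 0.897 by edgeR). krt1-19d ranged from 5.73 to 36.4 CPM and krt15 from 2.28 to 21.1 CPM, with overlap in both. Of the 12 keratins tested, 8 were highest in Geminin-negative replicate 3, 3 in Geminin-negative replicate 2 and 1 in Geminin-positive replicate 1. The rows of 4 keratins lie within 182.356 kb on chromosome 23 (krt5, krt8, krt18a.1 and krt18a.2, 10238226 to 10420582), and this block held the 3 keratins with the highest level per kilobase.

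**Figure D3:**
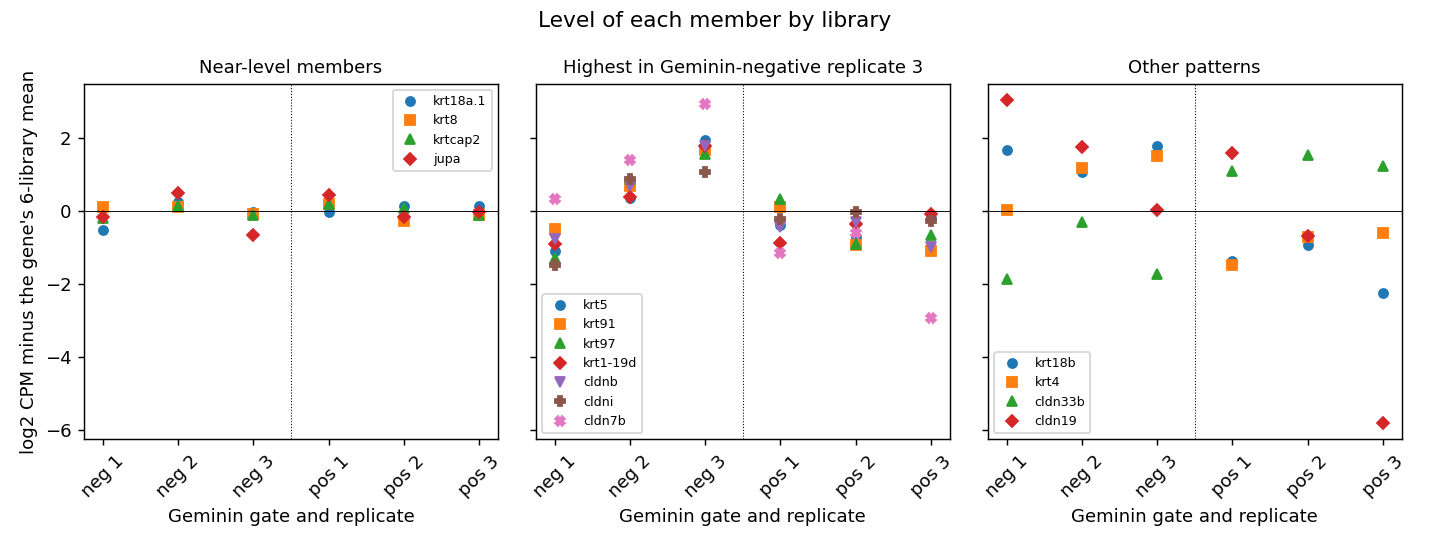
Level of selected genes in each library as log2 CPM minus the mean over the 6 libraries, in 3 panels grouped after their values were seen. krt18a.1, krt8, krtcap2 and jupa stay near 0, the middle panel holds genes highest in Geminin-negative replicate 3, and krt18b and cldn33b separate the gates in opposite directions.

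Among the named epidermal genes 0 passed the edgeR test, 0 had an unadjusted p under 0.05 and 0 were called by DESeq2, and 4 of the 7 tested had a negative log2 fold change (median -0.04, against -0.01 for all genes tested). Plakoglobin (jupa), which joins cadherins to filaments in desmosomes and adherens junctions, was the most abundant, at 84.5, 135 and 60.6 CPM against 129, 85.6 and 93.5 CPM. Epcam was at 25.7, 31.2 and 42.4 CPM against 59.2, 7.42 and 13.6 CPM, so that the highest and the lowest library were both Geminin-positive. Desmoplakin (dspa) was at 24.6, 22.4 and 30.5 CPM against 19.6, 15.6 and 40.3 CPM. These 3 overlapped between the gates.

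The other named epidermal genes were low and uneven. E-cadherin (cdh1) was at 1.27, 11.1 and 14.0 CPM against 3.67, 5.54 and 0.5003 CPM. The basal keratinocyte factor tp63 was at 1.98, 9.01 and 0 CPM against 5.38, 1.87 and 8.94 CPM. Envoplakin (evpla) was at 2.99, 14.0 and 25.8 CPM against 2.72, 0.216 and 2.88 CPM, the 1 named epidermal gene tested whose groups did not overlap (log2 fold change -2.88 ± 1.31 SE, adjusted p = 0.564 by edgeR; -2.15 without Geminin-negative replicate 3). Its partner periplakin (ppl) had 45, 210 and 0 counts in the Geminin-negative libraries and 0 in all Geminin-positive ones, a level at least 49.4-fold lower against a floor of 3 counts over the group, though 1 Geminin-negative library was also at 0. Without Geminin-negative replicate 2 that bound was 16.3-fold. The bound covers counting error alone, so the true fold could be smaller. Plakophilin 3 (pkp3a) ranged from 0 to 15.6 CPM with overlap.

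Among claudins, cldn33b stood out for its direction. Its level was 3.75, 11.01 and 4.08 CPM in the Geminin-negative and 28.9, 39.7 and 31.8 CPM in the Geminin-positive libraries, with no overlap. Means were 6.28 ± 4.10 and 33.5 ± 5.64 CPM (SD, n = 3 each), a 5.33-fold difference that did not pass the test (log2 fold change 2.41 ± 0.59 SE, adjusted p = 0.149 by edgeR). DESeq2 (adjusted p = 0.00561) and edgeR without the filter on low counts (adjusted p = 0.0419) called it, and over all 12 alternative fits its adjusted p ran to 0.418. The gene lies on chromosome 6 at 30497091 to 30498095 (danRer10).

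The most abundant claudin was cldnb, which rose from Geminin-negative replicate 1 to replicate 3 as krt5 did. Among the Geminin-positive libraries cldnb was lowest in replicate 3, where krt5 was highest. The level of cldnb was 20.7, 57.1 and 121 CPM against 26.4, 28.7 and 17.8 CPM (log2 fold change -1.45 ± 0.59 SE, adjusted p = 0.467 by edgeR). Its log2 fold change was -0.71 without Geminin-negative replicate 3. The ratio of cldnb to krt5, chosen after the values were seen, spanned 2.32-fold over the 6 libraries, less than either gene alone. Ratios of krt97 and krt91 to krt5 spanned 2.30-fold and 2.89-fold, so a narrow span was not particular to cldnb. cldni was at 8.06, 41.0 and 47.5 CPM against 19.2, 21.9 and 18.6 CPM. cldn7b was at 4.76, 10.1 and 29.1 CPM against 1.71, 2.52 and 0.5003 CPM, without overlap (log2 fold change -3.21 ± 1.18 SE, adjusted p = 0.370 by edgeR; -2.27 without Geminin-negative replicate 3).

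A pair of claudins had counts in every Geminin-negative library and in no Geminin-positive library. cldn15la had 21, 53 and 39 counts, at least 21.9-fold lower in the Geminin-positive group, and cldn7a had 8, 101 and 150 counts, at least 50.2-fold lower. cldn15la did not pass the test (edgeR adjusted p = 0.360), while cldn7a did not pass the filter on low counts and was not tested. Both bounds use the floor of 3 counts over the group, and that of cldn7a was 29.5-fold without Geminin-negative replicate 3. The floor covers counting error alone and not the spread between libraries, so the true folds could be smaller. Among all claudins, 6 had counts in Geminin-negative libraries alone and 4 in Geminin-positive libraries alone. Apart from cldn7a, cldn15la and cldng, each of these had all its counts in 1 library, from 2 counts (cldnk and cldn23l) to 99 (cldn11a). In the Geminin-positive libraries cldnf had 45, 0 and 0 counts, at least 25.8-fold higher by the same floor, a bound that rests on 1 library. There cldng had 22, 16 and 0 counts, at least 21.8-fold higher. How many of all genes share these patterns was not counted.

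Other claudins varied within the gates. cldn12 was at 23.0, 32.4 and 33.4 CPM against 10.6, 53.7 and 10.1 CPM. cldn19, a claudin of Schwann cells in mammals, was at 58.4, 23.8 and 7.26 CPM against 21.5, 4.39 and 0.125 CPM. cldn11b ranged from 5.56 to 23.8 CPM, cldn15b from 2.78 to 12.02 CPM, cldna from 0 to 13.0 CPM and cldn23.1 from 0 to 8.57 CPM. In these 6 the groups overlapped. Over all 71 genes, 11 had at least 100 counts in 1 library and 0 in another of the same gate, among them krt18a.2, cldn8.2, ppl and tp63.

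**Figure D4:**
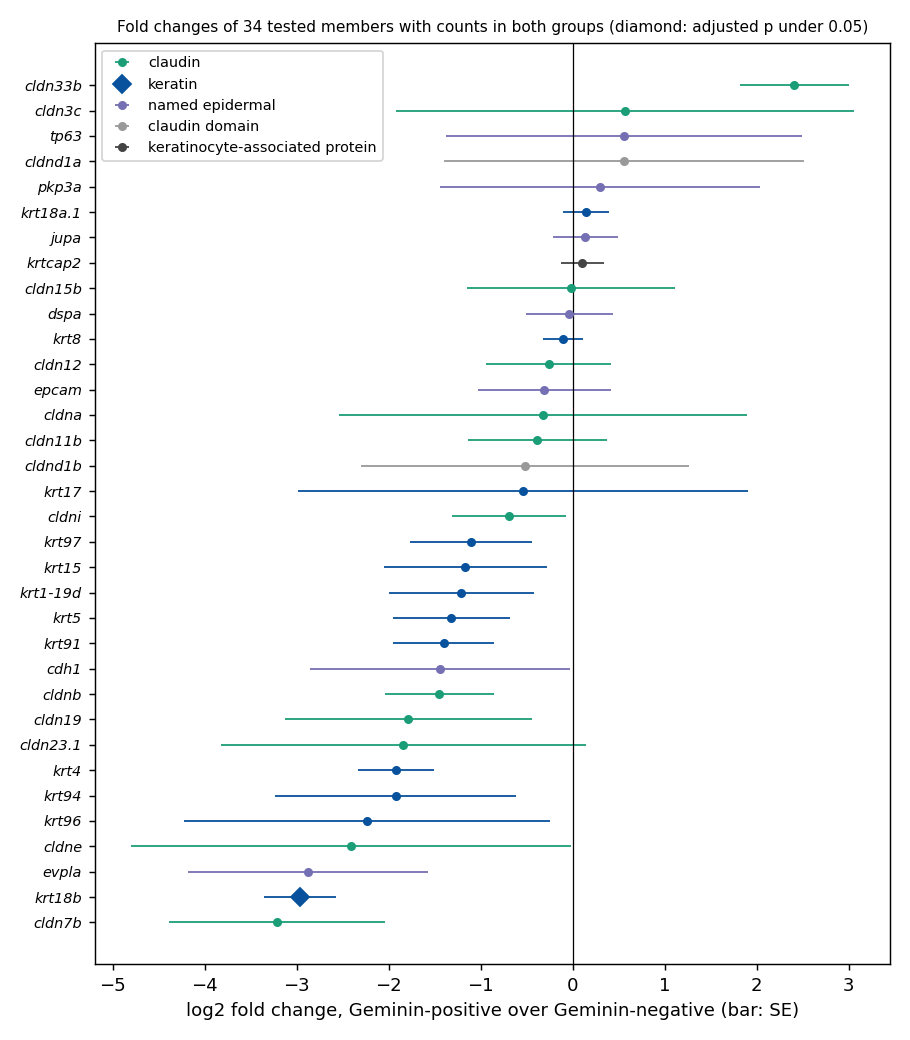
Log2 fold change, Geminin-positive over Geminin-negative, with its SE for the 34 tested genes that had counts in both gates. krt18b, at -2.97, is the 1 gene with an edgeR adjusted p under 0.05, and cldn33b, at 2.41, is the highest.

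Of the 71 genes, 35 passed the filter on low counts (12 keratins, 13 claudins, 7 named epidermal genes, both claudin domain genes and krtcap2). The 1 call, krt18b, compares with 0.607% of the 12855 genes tested (0.482% lower and 0.124% higher). At an unadjusted edgeR p under 0.05, 6 genes were lower and 1 higher, where 5.76% and 3.64% of all genes tested were (9.4% in either direction). Groups did not overlap for 7 of the 35, a share of 20%, which is near the 18.4% of all genes tested. Of the 7, 6 were lower (10.3% of all genes tested) and 1 higher (8.11%). A negative log2 fold change was found for 27 of the 35, against 50.4% of all genes tested. The median log2 fold change was -1.27 for keratins and -0.69 for claudins, the latter also with cldn15la at its bound. Without Geminin-negative replicate 3 these medians were -0.50 (13 keratins) and -0.32 (15 claudins). The claudin median was -0.33 without Geminin-negative replicate 2 (15 claudins), -0.34 without Geminin-positive replicate 3 (16) and -1.36 without Geminin-positive replicate 2 (16). The filter on low counts was applied anew in each such fit, so these medians do not cover the same genes. The keratin with a positive log2 fold change was krt18a.1. Other fits called more of the 71 genes. krt18b and krt4 were called by library size only (1.44% of all genes tested called), with limma-voom (0.871%) and with a replicate block (1.04%). DESeq2 added cldn33b and cldn7b to these (5.04% of genes called). With no filter on low counts krt18b, krt4, cldn33b, krt5, krt91 and krt94 were called (2.57%), and with a stricter filter krt18b alone (1.08%).

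Genes of related lists outside the 71 did not pass the edgeR test. The 6 lists of epidermal, junction, epithelial regulator and goblet or ionocyte genes held 95 genes that are not among the 71. Of these, 52 were tested and 0 called by edgeR, 0 by limma-voom and 1, the carbonic anhydrase gene ca2, by DESeq2. With no filter on low counts 4 were called, namely ca2, cdh2, icn2 and tmsb1. At an unadjusted edgeR p under 0.05, 3 genes of the superficial epidermis list, 2 of the basal epidermis list and 1 each of the desmosome, tight junction and goblet or ionocyte lists were lower. In the superficial epidermis list, 10 of 12 tested genes had a negative log2 fold change (median -1.44, and -0.78 without Geminin-negative replicate 3). Among those with an unadjusted p under 0.05, icn2 was at 13.2, 94.1 and 172 CPM against 19.5, 17.6 and 30.8 CPM, while the related icn was at 1819.8, 2136 and 1435 CPM against 1845, 2941 and 2298 CPM. The tight junction list had a median of -0.99 over 9 tested genes, and leaving out Geminin-negative replicate 1 or 3 gave -0.14 or -0.20. The summed level of this list was 160, 146 and 161 CPM against 94.5, 91.5 and 85.5 CPM, without overlap. A positive log2 fold change was found for 3 of its 9 tested genes. Its member f11r.1, a junctional adhesion molecule, was at 26.6, 71.7 and 93.3 CPM against 26.8, 30.4 and 12.9 CPM. The basal epidermis list had a median of -0.82 over 9 genes, which ranged from -1.22 to -0.13 with 1 library left out and was -0.13 without Geminin-negative replicate 3. The desmosome and adherens junction list had a median of -0.03 over 11 genes. For epithelial transcription and splicing factors the median and the summed level differed in sign. The median was 0.67 over 8 tested genes, of which 0 had an unadjusted edgeR p under 0.05 and 0 were called by DESeq2. It was 0.10 without Geminin-negative replicate 3, 0.0011 without Geminin-positive replicate 2 and 0.067 by library size only, while the summed level was 73.4, 63.9 and 83.4 CPM against 65.9, 53.5 and 41.3 CPM. Of the 18 rows of this list, 6 were at 0 in every library.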

How the data were processed

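The deposited tables give raw read counts per gene, made by the authors. Per the submitters' processing notes, the tools were featureCounts 1.6.1, TopHat2 2.1.1 and Trim Galore 0.4.1 and the build was danRer10. How strand and multiply mapped reads were handled is not given in the sources used here. Reads of overlapping genes, on either strand, therefore cannot be separated. The deposited gene length and coordinates, another measure of the authors' tables, served for levels per kilobase and positions.

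Ensembl identifiers were paired with symbols through a reference table (26790 of 34289 genes) and RefSeq annotation of assembly GRCz12tu. Of the 71 genes, 52 matched exactly. The other 19 matched by case, synonym, or base name with chromosome and neighbour, except CLDN8. That gene, at 0 in every library, kept the symbol of the reference table. A total of 12 share exon bases with another row.

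Counts were tested with edgeR 4.0.16 in R 4.3.3 (filterByExpr, TMM, robust quasi-likelihood test, Benjamini-Hochberg adjustment over all 12855 genes tested, threshold 0.05, biological coefficient of variation 1.123). Folds are Geminin-positive over Geminin-negative. CPM uses TMM-scaled totals, shares use plain totals, and floors cover counting error only. Shares and ratios were compared by exact two-sided permutation tests. Alternatives used DESeq2 1.42.0, limma 3.58.1 (voom), library size only, no filter, a stricter filter, a replicate block and each library left out. With a library left out the filter was applied anew, so medians of those fits can cover other genes. The test was checked on simulated data. No library was a duplicate (chi-square over degrees of freedom at least 94.9 for every pair).

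The members and lists were chosen with earlier results of these data known. Genes were named by a rule: the 8 epidermal genes, krt8 and the krt18 genes, the 10 most abundant keratins and claudins, called genes, the 4 smallest p in each direction, genes apart from the index, and up to 3 genes of each list. Keratins and claudins given by counts alone (cldn7a, cldn15la, cldn8.2, cldn11a, cldn23l, cldnf, cldng, cldnk, krt17, krt96 and those at 0) were named after their values were seen.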

Additional observations from a re-analysis of the deposited data

How the results depend on the processing

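The count of called genes among the 71 was 1 in the edgeR test, 2 by library size only, 4 with DESeq2, 2 with limma-voom, 6 with no filter on low counts and 2 with the replicate block, and it ran from 0 to 1 when 1 library was left out, with 0 without Geminin-negative replicate 3. Over all genes, calls numbered 78 in the edgeR test, 185 by library size only, 628 with DESeq2, 557 with no filter, 134 with the block and 22 to 96 with 1 library left out. Among genes of the other epithelial lists, 1 was called with DESeq2 and 4 with no filter. Same-numbered libraries deviated together with r of 0.18, 0.06 and 0.04. Geminin-negative replicate 3 correlated slightly better with Geminin-positive replicate 2 (r of 0.05), and every other library correlated best with its own number. These values do not settle whether the numbers mark pairs. The test took no pairs, and the replicate block is given as an alternative.

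With totals scaled by TMM, chosen after seeing the data, the difference in share was -0.178 percentage points for keratins, against -0.427 with plain totals. Of 29 named genes with a fold change, 19 kept 1 direction in all alternatives run. By library size only, which moved the median of all genes by -0.46, log2 fold changes turned to -0.28 for jupa, -0.32 for krt18a.1, -0.36 for krtcap2 and -0.039 for pkp3a. pkp3a was also at -1.55 with limma-voom and -0.54 with the replicate block, where cldna was at 0.13. With 1 library left out, ranges crossed 0 for dspa (-0.55 to 0.22), epcam (-1.65 to 0.14), jupa (-0.14 to 0.46), pkp3a (-0.61 to 0.89), tp63 (-0.044 to 2.35), krt18a.1 (-0.032 to 0.31), cldn12 (-1.52 to 0.12), cldn15b (-0.82 to 0.38), cldna (-2.28 to 0.38) and the ratio of krt8 to the epidermal index (-0.12 to 0.25). The causes were not tested.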
